A study of Callithrix jacchus with 3 samples.

Results

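The genes described here encode parts of the axoneme, the microtubule core of sperm flagella and motile cilia, and the machinery that carries proteins into and along it. They were measured by RNA-seq in testis from adult wild-type common marmosets, small monkeys of South America (Callithrix jacchus). The series holds 3 datasets, total small RNA, small RNA recovered with the PIWI protein MARWI, and testis RNA-seq, of which the RNA-seq is used here. Per the labels it had 2 replicates, from animals aged 41 and 51 months, but only 1 column was deposited for both. Levels are therefore given without a replicate error, no difference between genes was tested, and ages were not compared. Values are RPKM, read numbers divided by transcript length and by library size, so levels of genes of different length can be set side by side.

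Genes were chosen by symbol and not by level, although the list was set with earlier results of these data known. Protein-coding entries were taken if their symbol begins with DNAH, DNAI, DNAL or DNAAF (axonemal dynein chains and their assembly factors), RSPH (radial spokes), DRC (the nexin-dynein regulatory complex), CFAP (cilia and flagella associated proteins), or with IFT, BBS or SPAG followed by a number. RPKM of all transcript entries of 1 symbol were summed. This gave 69 genes with 94 entries, of 12177 named protein-coding genes in the table. Of the 69, 22 carried their symbol in the table and 47 were listed under a LOC number that was turned into a symbol. The current RefSeq gene table of the marmoset has 131 symbols of this form, so 62 have no entry under that name. The table lists only values above 0, and a gene without an entry was not shown to be unexpressed.

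The axoneme consists of outer doublet microtubules around a central pair. Rows of outer and inner dynein arms on the doublets slide them against each other, radial spokes link the doublets to the central apparatus, and the nexin-dynein regulatory complex links doublet to doublet. Dynein arms are preassembled in the cytoplasm by dedicated factors. Intraflagellar transport (IFT) moves building blocks in 2 complexes, IFT-A and IFT-B, and the BBSome is a cargo adaptor that travels with them. In the testis these structures are built in spermatids, where the sperm tail forms.

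The tissue label was checked against marker genes. Of 7 listed spermatid markers 5 had an entry, between 48.9 RPKM for SPACA1 and 7177 RPKM for the protamine PRM1. Of 4 genes listed for spermatocytes 2 had an entry, SYCP1 at 49.9 and DDX4 at 26.96 RPKM, and SYCP3 and PIWIL1 had none. What part of the DDX4 value came from other germ cells was not tested. Both Leydig cell markers with an entry, of 3 listed, were above 1 RPKM, with the hormone INSL3 at 404 and STAR at 4.91 RPKM. Of 3 spermatogonial markers 2 had an entry, both under 1 RPKM, with ZBTB16 at 0.810 and KIT at 0.290 RPKM. Of 4 Sertoli cell markers 3 had an entry, with WT1 at 3.68, AMH at 0.148 and AMHR2 at 0.0104 RPKM. All 3 epididymal markers with an entry were under 1 RPKM, of 6 listed. Multiciliated cells, which line the efferent ducts and also build axonemes, have 9 listed markers, of which DNAH5, DNAH9, DNAH11 and RSPH4A are described here as genes in their own right. They ranged from 0.0428 RPKM for TP73 to 8.17 RPKM for CCNO, with 5 of 9 at 1 RPKM or more. The part of other ciliated cells in the values below was not tested. In a bulk sample, fewer cells of a type and less RNA per cell cannot be told apart.

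Axoneme and ciliary transport genes stood high in testis RNA. Of the 69 genes, 66 (95.7%) were at 1 RPKM or more, beside 63.9% of all named protein-coding genes. At 10 RPKM or more there were 44 (63.8%), beside 21.8% of all named genes. At 5 RPKM or more the list had 54 genes, beside 36.0% of all, and at 0.1 RPKM or more it had all 69, beside 88.6% of all. Their median was 16.2 RPKM, and that of the other 12108 named genes was 2.41 RPKM. The middle of the list, from the lower to the upper quartile, ran from 5.91 to 36.1 RPKM, and that of the other genes from 0.412 to 8.35 RPKM. At 50 RPKM or more there were 8 of the 69 (11.6%), beside 3.44% of all named genes, and at 100 RPKM or more 2 (2.90%), beside 1.34%. Ranked among all named genes, 28 of the 69 lay above the 90th percentile and 9 below the 50th.

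**Figure D1:**
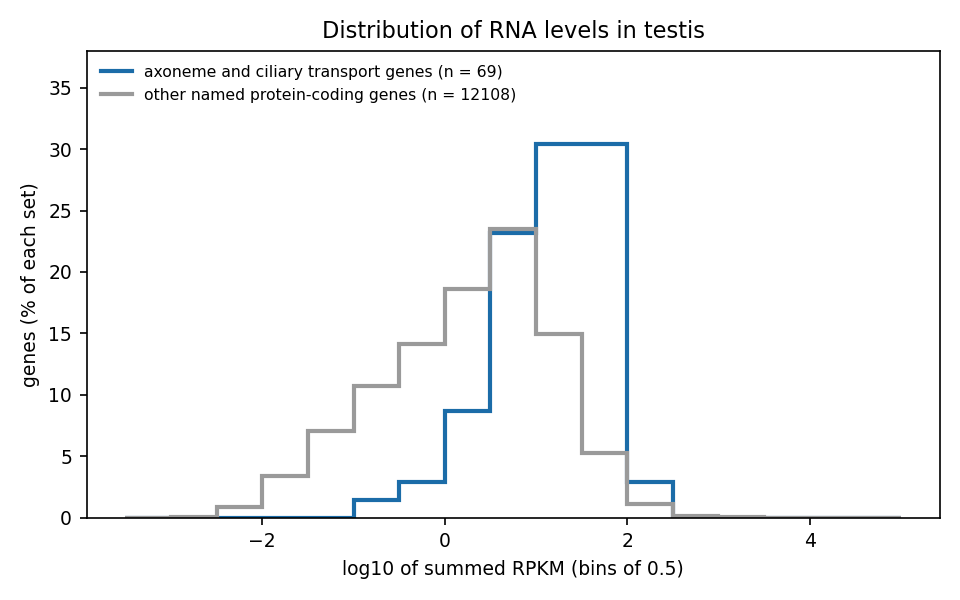
Share of genes (y axis, percent of each set) by the log10 of summed RPKM in bins of 0.5 (x axis), for the 69 axoneme and ciliary transport genes in blue and the 12108 other named protein-coding genes in grey. The blue line lies to the right of the grey one, with medians of 16.2 and 2.41 RPKM, and its lowest gene stands at 0.291 RPKM.

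The 2 highest genes belong to different steps of tail building, and together they held 17.7% of the summed RPKM of the list. DNAAF11, formerly LRRC6, is a cytoplasmic factor that dynein arm assembly needs. It had 169 RPKM from 1 entry on chromosome 16, from 62030454 to 62121574 in the coordinates of the deposited table, whose genome build is not given in the sources used here. IFT57, a subunit of the peripheral part of IFT-B, had 145 RPKM from 1 entry on chromosome 15, from 88679482 to 88739273. The next was SPAG9 at 81.6 RPKM, a scaffold protein of JNK signalling and motor transport that shares only its name with the axoneme genes. CFAP276, a protein of the inside of the doublet microtubules, had 67.7 RPKM. DRC10 of the nexin-dynein regulatory complex had 61.6 RPKM. SPAG1, a dynein assembly factor, followed at 61.3 RPKM and SPAG17, a large central apparatus protein, at 58.3 RPKM. The list of the 15 highest also held CFAP90, DNAAF4, DNALI1, CFAP43, CFAP20, RSPH14, IFT81 and CFAP97D1, from 52.9 down to 39.2 RPKM.

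**Figure D2:**
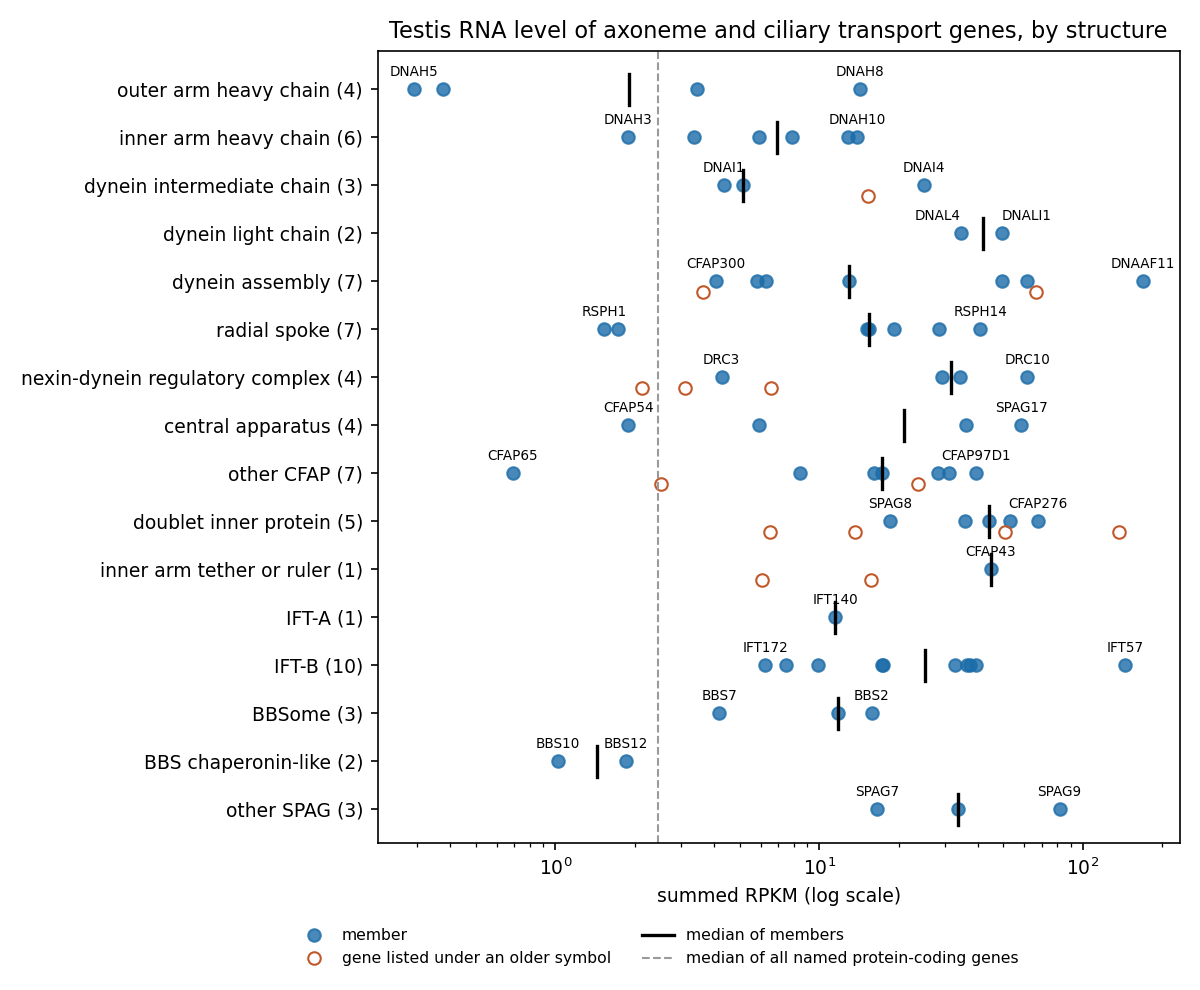
Summed RPKM (x axis, log scale) of the 69 genes in blue, by the structure they belong to (rows, number of genes in brackets), with open orange circles for 14 genes that the table lists under an older symbol. Black bars are medians of the blue points and the dashed line is the median of all named protein-coding genes, 2.44 RPKM. Light chains and doublet inner proteins lie wholly to its right, whereas both BBS chaperonin-like genes of the list lie to its left. Outer and inner arm heavy chains, radial spoke, central apparatus and other CFAP genes extend to its left. So does the orange circle of DRC11 in the regulatory complex.

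The motors themselves were considered first. Dynein heavy chains carry the motor domain. By their median they were the lowest class of arm subunit, narrowly below the intermediate chains listed under current symbols. The 10 heavy chains with an entry had a median of 4.68 RPKM (0.291 to 14.3 RPKM). The 3 intermediate chains had a median of 5.16 RPKM and the 2 light chains one of 41.9 RPKM. With DNAI3, listed under an older symbol, the median of the intermediate chains was 10.2 RPKM. All 59 genes other than heavy chains, most of them not arm subunits, had a median of 18.5 RPKM. Among outer arm chains, DNAH8, the chain known from sperm tails, had 14.3 RPKM. DNAH9, known from the outer part of airway cilia, had 3.44 RPKM. DNAH11, its counterpart near the base of airway cilia, had 0.376 RPKM. DNAH5, a chain of airway cilia closely related to DNAH8, had 0.291 RPKM, from 2 entries at 0.200 and 0.0909 RPKM, and was the lowest of all 69 genes. The sperm chain thus stood at 3.48 times the sum of the other outer arm chains. DNAH17, the partner of DNAH8 in sperm, has no entry under its name and was not included in this ratio. The longer of the 2 DNAH9 entries overlaps MAP2K4, a kinase gene on the same strand with 5.67 RPKM, and the part of its reads in the 0.724 RPKM of that entry was not tested.

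All 6 inner arm heavy chains with an entry were above 1 RPKM, beside 63.9% of all named genes at this limit. Their median was 6.91 RPKM. DNAH10, a subunit of the double-headed inner arm, had 13.97 RPKM and was nearly level with DNAH8. DNAH12, a single-headed arm chain, had 12.9 RPKM. DNAH6 had 7.90 RPKM and DNAH1, mutated in men with short and irregular sperm tails, 5.91 RPKM. The DNAH1 value sums a 10.2 kb entry with 3.76 RPKM and an 82.3 kb entry with 2.16 RPKM. By the longer entry alone DNAH1 would stand below DNAH2. DNAH2, the partner of DNAH10, had 3.35 RPKM, and DNAH3 had 1.89 RPKM. The entries did not cover these genes alike. That of DNAH2 spans 3.29 kb of an unplaced contig and that of DNAH12 34.2 kb, against 373 kb for DNAH6, so their RPKM describe the annotated piece alone. The median of the outer arm chains was 0.276 times that of the inner arm chains, with only 4 and 6 genes behind them. The outer arm set holds DNAH5, DNAH9 and DNAH11, known from airway cilia, and lacks DNAH17. Its sperm chain DNAH8, at 14.3 RPKM, was the highest of all 10 heavy chains, so this ratio does not rank the arms of the sperm tail.

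**Figure D3:**
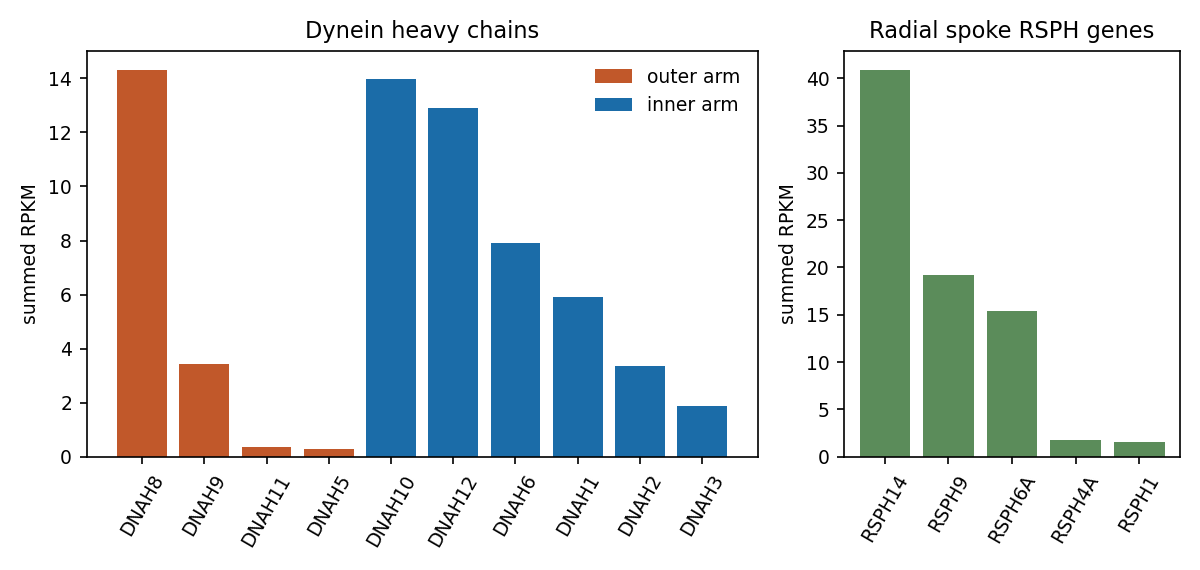
Summed RPKM (y axes, from 0, with different scales) of the 10 dynein heavy chains with an entry (left, outer arm in orange and inner arm in blue) and of the 5 RSPH genes (right). Among outer arm chains DNAH8 stands at 14.3 RPKM with DNAH5 and DNAH11 near 0, and among radial spoke genes RSPH6A stands at 15.4 RPKM and RSPH4A at 1.73 RPKM.

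The light chains of dynein were above all heavy chains, and the intermediate chains lay on both sides of the highest one. Intermediate chains anchor the arms to the doublet. The outer arm chains DNAI1 and DNAI2 had 4.37 and 5.16 RPKM, within the range of the heavy chains. DNAI4 (WDR78), an intermediate chain of the double-headed inner arm, had 24.9 RPKM from 2 entries of 16.3 and 8.59 RPKM. DNALI1, a light chain of single-headed inner arms, had 49.3 RPKM, and DNAL4, a light chain of the outer arm, had 34.5 RPKM. DNAI4 and both light chains therefore exceeded every heavy chain with an entry, as did DNAI3, listed under its older symbol WDR63, at 15.3 RPKM.

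Assembly factors covered a wide range. Below DNAAF11 and SPAG1, DNAAF4, formerly DYX1C1, had 49.4 RPKM from 3 entries of 24.6, 17.3 and 7.51 RPKM. The entries of 24.6 and 17.3 RPKM do not overlap. Within the span of DNAAF4 lies an entry on the opposite strand with 174 RPKM, known only by a LOC number, and whether its reads were counted to DNAAF4 was not tested. DNAAF6 (PIH1D3), the only X-linked gene of the list, had 12.95 RPKM. DNAAF2, known from medaka fish and humans to act in arm assembly, had 6.32 RPKM. DNAAF9 had 5.80 RPKM, and CFAP300, which also acts in arm assembly, had 4.05 RPKM. All 7 assembly genes were at 1 RPKM or more, beside 63.9% of all named genes.

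Among radial spoke genes the sperm paralogue was the higher. RSPH6A and RSPH4A are spoke head paralogues, of which RSPH6A is known from mouse sperm and RSPH4A from airway cilia. RSPH6A had 15.4 RPKM and RSPH4A 1.73 RPKM, a ratio of 8.89. RSPH9, a head subunit common to both kinds of axoneme, had 19.2 RPKM. RSPH14, the highest spoke gene, had 40.9 RPKM, and RSPH1, a head subunit, only 1.54 RPKM. CFAP206, a spoke protein of Tetrahymena, and CFAP91, which lies at the base of spokes, had 28.4 and 15.1 RPKM. Of the regulatory complex, DRC10 had 61.6, DRC2 34.2 and DRC9 29.3 RPKM, while DRC3 had 4.27 RPKM.

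The central apparatus was uneven. SPAG17, at 58.3 RPKM, and SPAG6, at 36.1 RPKM, both subunits of projections of the first central microtubule, were high. SPAG16, which lies on the bridge between the central microtubules, had 5.94 RPKM, and CFAP54, of another projection, 1.89 RPKM. Of proteins of the inside of the doublets, all 5 listed under their current symbols were at 10 RPKM or more, beside 21.8% of all named genes. A further 4 under older symbols, described below, ranged from 6.53 to 137 RPKM. CFAP276 had 67.7, CFAP90 52.9, CFAP20 44.0, CFAP141 35.7 and SPAG8 18.5 RPKM. CFAP43, part of the tether of an inner arm and mutated in men with malformed sperm tails, had 44.8 RPKM.

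The remaining CFAP genes had a median of 17.4 RPKM. CFAP97D1, needed for a stable axoneme in mouse sperm, had 39.2 RPKM. CFAP20DC had 31.2 RPKM and CFAP97 28.3 RPKM. CFAP299 and CFAP263 lay at 17.4 and 16.2 RPKM, and CFAP70 at 8.43 RPKM. CFAP65, mutated in some men with malformed sperm tails, was the exception at 0.690 RPKM. It was the only gene of the list under 1 RPKM besides DNAH5 and DNAH11.

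Of the transport genes, all 11 IFT genes with an entry were at 1 RPKM or more, beside 63.9% of all named genes. At 10 RPKM or more there were 8, beside 21.8% of all. Their median was 17.5 RPKM. Genes without an entry are not part of these counts. Within IFT-B, IFT81 and IFT74, which pair to bind tubulin, had 39.4 and 37.5 RPKM, by sums next to each other in rank below IFT57. The IFT81 sum adds entries of 23.1 and 16.4 RPKM that cover largely separate stretches of the gene. The highest entries of IFT81 and IFT74, at 23.1 and 20.7 RPKM, were below IFT25. IFT25 and IFT27, which form a dimer that mice need for the sperm tail more than for most cilia, had 36.4 and 17.5 RPKM. IFT46 of the IFT-B core had 32.8 RPKM. IFT80, a peripheral subunit, had 17.3 RPKM, of which 1 entry of 7.37 RPKM lies upstream of the highest entry and does not overlap it. IFT56 had 9.90, IFT88 7.46 and IFT172 6.25 RPKM, the lowest 3 of the complex. IFT140, the only IFT-A gene with an entry under an IFT symbol, had 11.5 RPKM.

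Of the BBSome, BBS2 had 15.9, BBS4 11.8 and BBS7 4.18 RPKM. BBS10 and BBS12, chaperonin-like proteins that help the BBSome to assemble, were lower, at 1.02 and 1.85 RPKM. Both of these genes were below the median of all named genes, and all 3 BBSome subunits above it. MKKS, a further chaperonin-like BBS gene under another symbol, had 4.75 RPKM, above that median and above BBS7. The SPAG genes with other roles were SPAG9, described above, SPAG5 at 33.5 RPKM, which acts at the mitotic spindle, and SPAG7 at 16.6 RPKM.

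Genes of the same structures under other names were also detected. Of 8 listed IFT subunits that are not among the 69 genes, 5 had an entry under another symbol. All 5 were at 10 RPKM or more, beside 21.8% of all named genes. The highest were TTC30A of IFT-B at 24.8 and WDR35 of IFT-A at 13.6 RPKM. With these added, IFT-A had 3 genes with a median of 12.9 RPKM and IFT-B 13 genes with a median of 17.5 RPKM. Of 10 listed transport motor genes 7 had an entry, and KIF3A and KIF3B were among those without. All 7 were at 1 RPKM or more, beside 63.9% of all named genes. The highest were WDR34, at 93.5 RPKM, and WDR60, at 23.1 RPKM, the intermediate chains of the retrograde motor dynein 2, whose heavy chain DYNC2H1 had 6.07 RPKM. Of 6 other BBS-related genes 4 had an entry. LZTFL1, which regulates BBSome entry into cilia and which mice need for sperm tails, had 250 RPKM, more than any gene chosen by symbol, and the BBSome subunit BBIP1 had 103 RPKM.

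Docking and ruler genes of the arms were lower. Of 7 listed genes 4 had an entry, with the ruler proteins CCDC40 and CCDC39 at 10.9 and 7.79 RPKM and the docking genes CCDC151 and ODAD1 at 2.20 and 1.47 RPKM. HYDIN and SPEF2, of the central apparatus, had 7.35 and 6.10 RPKM. Of 9 listed transcription factors of ciliary genes 7 had an entry. RFX2, which mice need to complete spermatids, had 136 RPKM and RFX4 23.3 RPKM, whereas FOXJ1, the main factor of motile cilia, had 4.76 RPKM. Of the factors that act in multiciliated cells, MCIDAS had 1.05 RPKM, and GMNC, MYB and TP73 were at 0.0706, 0.0933 and 0.0428 RPKM.

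The table predates several gene names. Of the 62 current symbols without an entry, 14 were found under an older symbol, and 48 were not. All 14 were at 1 RPKM or more and 7 at 10 RPKM or more, beside 63.9% and 21.8% of all named genes. Their median was 10.1 RPKM. CCDC19, now CFAP45, a doublet inner protein, had 137 RPKM a level between those of IFT57 and SPAG9. LRRC50, now DNAAF1, a dynein assembly factor, had 66.3 RPKM, and CCDC11, now CFAP53, another doublet inner protein, 50.7 RPKM. CCDC147 (CFAP58) followed at 23.7, WDR65 (CFAP57) at 15.7, WDR63 (DNAI3) at 15.3 and WDR16 (CFAP52) at 13.7 RPKM. C9orf135 (CFAP95), also a doublet inner protein, had 6.53 RPKM. The lowest was the regulatory complex gene IQCA1 (DRC11), at 2.13 RPKM, after C21orf2 (CFAP410) at 2.51 and GAS8 (DRC4) of the regulatory complex at 3.10 RPKM. GAS8 is also among the listed pathway genes. CCDC135 (DRC7) had 6.59 RPKM, so with older names the median of the regulatory complex was 6.59 RPKM, beside 31.8 RPKM without them.

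Level was next set against the size of the genes and the number of entries. The longest entry of a gene spanned a median of 44.5 kb in this list and 23.4 kb in the other named genes. Span and RPKM were nearly unrelated. Spearman's rho was -0.07 over the 69 genes and 0.07 over the other 12108, as a description across genes of 1 library pool. Without heavy chains it was 0.08 over 59 genes, and the 15 genes over 100 kb that are not heavy chains had a median of 17.4 RPKM.

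**Figure D4:**
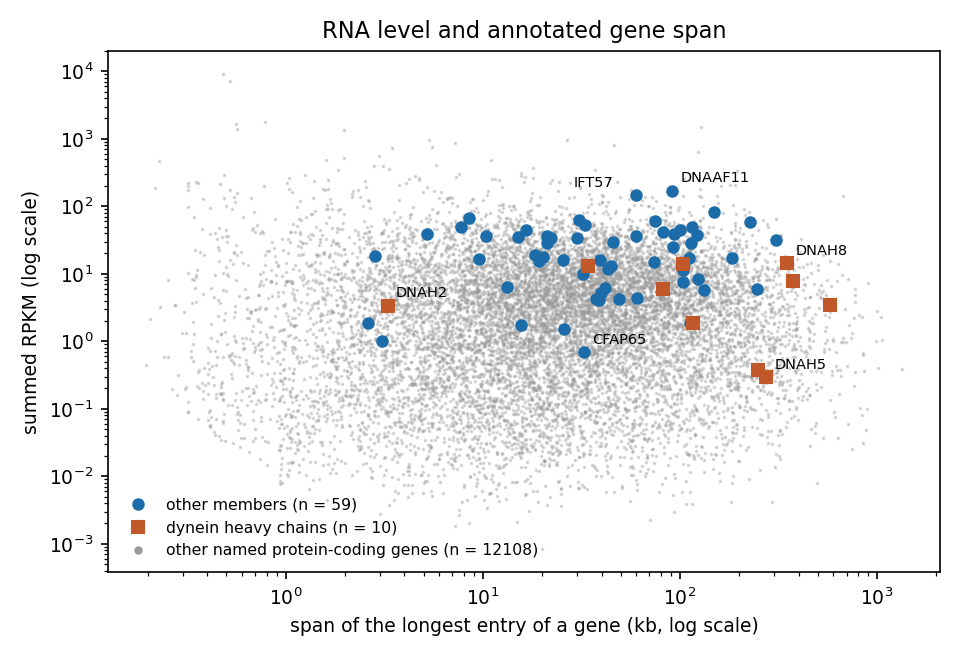
Summed RPKM (y axis, log scale) against the span of the longest entry of each gene in kb (x axis, log scale), with dynein heavy chains as orange squares, the other 59 genes of the list as blue circles and the other 12108 named genes as grey dots. Blue circles show no trend with span (rho of 0.08), and DNAH5 stands lowest at 0.291 RPKM.

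Of the 69 genes, 47 had 1 entry, 22 had more than 1 and 3 of these had 3. Where there were several, the highest entry held a median of 65.7% of the sum (46.9% to 95.8%). IFT80 had the smallest such share, 46.9%, with entries of 8.14, 7.37 and 1.83 RPKM. DNAAF6 had the largest, with entries of 12.4 and 0.549 RPKM. Whether reads shared by overlapping entries were split between them or counted in each is not given in the sources used here, so the sums of these 22 genes may count some reads more than once. Where entries cover separate stretches of a gene, as largely in IFT81, a sum of RPKM may also overstate its level.

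**Figure D5:**
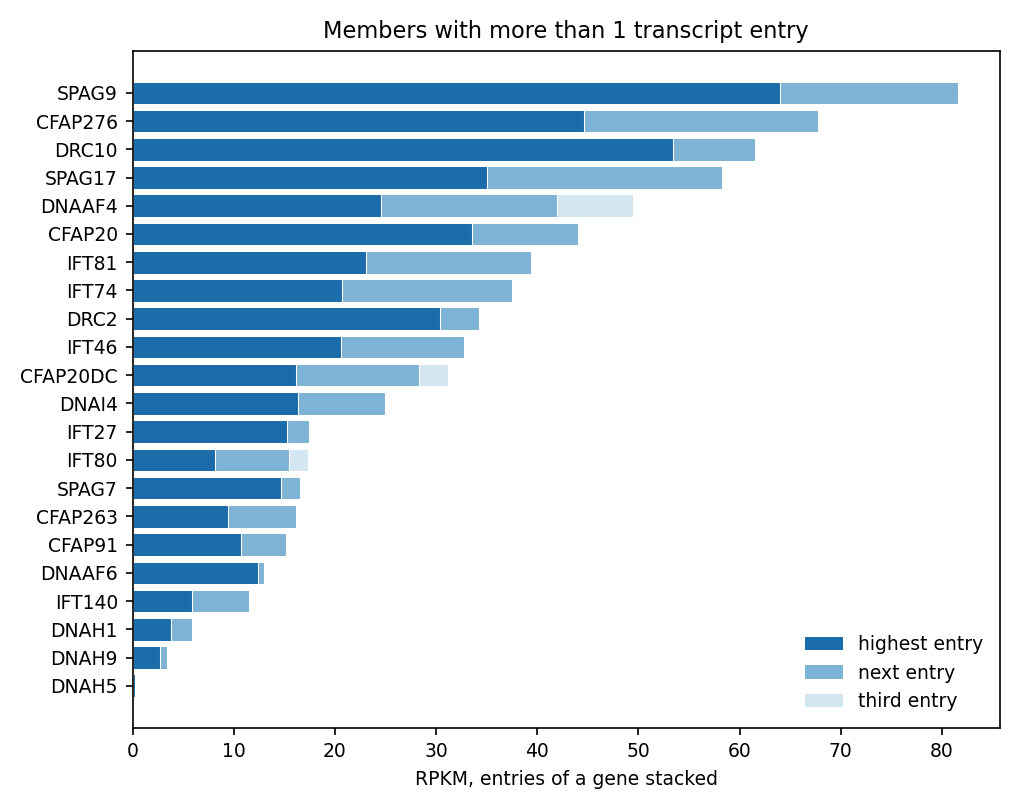
RPKM (x axis) of the transcript entries of the 22 genes with more than 1 entry, stacked from the highest entry in dark blue to the lowest in pale blue. DNAAF4, CFAP20DC and IFT80 have 3 entries each, and in SPAG9 and DRC10 the highest entry makes up most of the bar.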

How the data were processed

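Marmoset testis RNA was sequenced, per the labels, from directional libraries built with a TruSeq kit for small RNA. Bowtie, TopHat and Cufflinks are named, per the submitters' processing notes, but not their versions or roles. No genome build is given in the sources used here. The authors deposited RPKM per transcript, 1 column for 2 replicates, above 0 only, and 8.75% of all summed RPKM lies in protein-coding entries. With no counts, depth is unknown, and how replicates were joined is not given in the sources used here. The small RNA tables carry no gene or position and were not used here.

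Of 16739 protein-coding entries, 8337 had a common name, 6165 a LOC number that the RefSeq gene table (assembly calJac240_pri, used for names alone) turned into a symbol, 934 kept a LOC number and 1303 had no name. RPKM were summed per symbol, and summing was tested on simulated data. Members, gene lists, marker lists and limits (1 and 10 RPKM) were chosen with earlier results of these data known. Older symbols were paired from knowledge, and listed symbols of 1 gene were counted once. The genes named are the 15 highest, every dynein heavy chain, RSPH, DRC, IFT and BBS gene, and the 3 highest, the lowest and any under 1 RPKM of each structure. Of the other pathway genes, the 2 highest of each list and those under 1 RPKM are named; others were named after their values were seen. Percentiles are ranks among 12177 named genes. Alternatives were other limits, other ways to join entries, other gene sets and added constants of 1 and 0.1 RPKM. Tables were handled in pandas 2.3.3 and numpy 2.4.6 under Python 3.11.15, rank correlations computed with scipy 1.17.1, and plots drawn with matplotlib 3.10.9.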

Additional observations from a re-analysis of the deposited data

How the results depend on the processing

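The count of 66 genes at 1 RPKM or more was 58 without SPAG genes, 80 with older symbols added, and 69, 54 and 44 at limits of 0.1, 5 and 10 RPKM. The median of 16.2 RPKM was 14.6 with the highest entry in place of the sum, 15.1 without SPAG genes and 15.4 with older symbols, and leaving out entries under 0.1 RPKM did not move it. With the highest entry, the ratio of DNAH8 to the other outer arm chains was 4.34, that of the IFT-B to the IFT-A median 3.08 (2.18 with sums) and that of outer to inner arm medians 0.265. With 1 RPKM added to each value, these 3 ratios were 2.99, 2.09 and 0.368 and that of RSPH6A to RSPH4A 6.004. With 0.1 RPKM added they were 3.42, 2.17, 0.287 and 8.46. With IFT subunits of other names, an alternative chosen after seeing the data, the IFT ratio was 1.36; it rests on 1 IFT-A gene without them. Leaving out DNAH2 or DNAH12, whose entries are short, also chosen after seeing the data, gave an arm ratio of 0.242 or 0.323. No ratio changed direction under the alternatives run. The planned search for RFX, FOXJ1 and CREM motifs in promoters was not run, because no promoter sequences were at hand. No paired analysis was possible because the RNA-seq dataset is 1 column.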

Other observations

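Some of these genes share their start with a neighbour on the other strand. Of the 69 genes, 6 (8.70%) had an entry that starts within 1000 bases of the start of an opposite-strand gene pointing away from it, with starts allowed to overlap by up to 500 bases, beside 5.42% of all named genes. The comparison was chosen after seeing the data and was not tested. In 3 of the pairs the axoneme or transport gene stood far above its neighbour. DRC10 had 61.6 RPKM and the ion channel gene TPCN1 1.62 RPKM, DRC9 had 29.3 and the protease gene LMLN 4.26 RPKM, and IFT74 had 37.5 and PLAA 3.98 RPKM. In the other 3 the neighbours were closer. CFAP276 had 67.7 and ELAPOR1 51.2 RPKM, IFT80 had 17.3 and the condensin gene SMC4 23.03 RPKM, and DNAI4 had 24.9 and MIER1 41.04 RPKM. All these values are sums over the entries of a gene. At the shared start, the CFAP276 entry had 23.1 RPKM, below the higher ELAPOR1 entry at 39.2 RPKM. The MIER1 entry there had 12.2 RPKM, below the higher DNAI4 entry at 16.3 RPKM. Both orders are the reverse of those of the sums. IFT80, at 8.14 RPKM there, stayed below SMC4 at 18.9 RPKM.

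Other protein-coding entries overlap 13 of the 69 genes, 11 of them from the opposite strand. The share of all named genes with such an overlap was not computed, so this count cannot be called high or low. The library was directional per the labels, but whether the counting used strand is not given in the sources used here. Among these, RSPH9, at 19.2 RPKM, overlaps MRPS18A, at 25.4 RPKM, and IFT140, at 11.5 RPKM, overlaps JPT2, at 41.7 RPKM. These values could hold reads of the partner, and this was not tested.

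The 8 TEKT and ODF genes of the tail, which were left out of the list, had a median of 35.6 RPKM, and the 9 CATSPER genes of the sperm calcium channel one of 16.8 RPKM, close to the 16.2 RPKM of the axoneme and transport genes.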
